A study of Mus musculus with 8 samples.

Results

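The major urinary protein (*Mup*) genes of mouse chromosome 4 were examined in peak lists of 2 antibodies, through the 10 genes *Mup1*, *Mup2*, *Mup3*, *Mup5*, *Mup8*, *Mup9*, *Mup10*, *Mup11*, *Mup20* and *Mup21*, out of 21788 protein-coding genes of the reference table. The genes were chosen by a measured value, the presence of peaks over their cluster in all lists, so that presence is a description here and was not tested. The cells were brown adipocyte precursors (BAC) isolated from interscapular fat of *Cars2* flox/flox pups and immortalized by SV40 large T antigen, and both groups carry the floxed allele. The Vec group received an empty retroviral vector and is labelled WT, and the Cre group received Cre recombinase, which removes *Cars2*, and is labelled CarS2-KO. After adipogenic differentiation both were profiled by Cut & Tag, in which an antibody directs a transposase to its site on chromatin so that nearby DNA is cut and sequenced. The antibodies were against EBF2, a transcription factor of brown fat, and H3K27ac, an acetylated histone found at active regulatory DNA, with 2 libraries per antibody and group and 1 deposited peak list per library. Nothing in the labels says that the libraries came from separate cultures, so the spread between them may be technical.

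MUP proteins are small secreted lipocalins, barrel-shaped carriers that bind volatile pheromones in a pocket and release them slowly from urine marks. Most are made in the liver of adult mice, where growth hormone signalling through STAT5 and androgens raise their expression, and some are made in glands. The genes form a tandem array on chromosome 4 with many pseudogenes. In the middle of the array the copies are nearly identical, and the genes toward its ends are more divergent. *Mup20* encodes darcin, the male protein that makes a scent mark attractive to females.

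The lists held 533 to 902 peaks each, and the number of reads behind them is unknown. The coverage that the peak caller took as background was recovered from the authors' folds and p-values, in overlapping fragments per base, as the 10th percentile over the weaker peaks of a list. It was 1.39 in EBF2 Vec replicate 2, against 7.38 to 8.76 in the other EBF2 lists. EBF2 Vec replicate 2 thus stands apart, and differences between Cre and Vec that rest on it are also given without it. In the H3K27ac lists, whose values are means over a region, the background was approximately 18.8 in Vec replicate 1. It was approximately 9.41 to 9.91 in the other H3K27ac lists, so H3K27ac Vec replicate 1 also lay apart from them. In EBF2 Cre replicate 1 the peaks are named with Cars2AKO, which in the study is the name of a mouse line, whereas the names in EBF2 Vec replicate 1 carry WT. Groups follow the labels. EBF2 peaks were called in the narrow mode and H3K27ac peaks in the broad mode, so the antibody and the mode of calling cannot be told apart. *Cars2* had no peak within 10 kb in any of the 8 lists, so the lists do not check the knockout. Of 12 genes that mark brown adipocytes, among them *Ucp1* and *Adipoq*, 0 had a peak within 10 kb in any list, and of 10 hepatocyte genes only *Serpina1a* had one, in 5 lists. Of all protein-coding genes 8.93% had such a peak in at least 1 list, so these small counts are near that share and say little about the cells. The study shows EBF2 binding by Cut & Tag at *Cars2*, *Ucp1* and *Cidec* in differentiated BAC. The lists hold no peak within 10 kb of these genes, and why was not tested.

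The 10 *Mup* genes fell into 3 states, and each gene kept its state in all 8 lists. *Mup2*, *Mup8*, *Mup9*, *Mup1*, *Mup10* and *Mup11* lay wholly inside a single peak of about 1.7 Mb in every list. *Mup20* lay partly under a smaller, separate block of peaks in every list. *Mup5*, *Mup3* and *Mup21* had no peak within 10 kb in any list. With both antibodies and in both Vec and Cre, 7 of the 10 genes therefore had a peak over them or within 10 kb. Over all protein-coding genes the share with such a peak was 5.15% and 3.86% in EBF2 Vec replicates 1 and 2, 5.19% and 4.98% in EBF2 Cre, 6.96% and 5.63% in H3K27ac Vec, and 5.83% and 7.23% in H3K27ac Cre. A peak within 10 kb in all 8 lists was found for 3.61% of the genes, and 2.75% lay wholly inside a peak in all 8. Since these lists were in view when the genes were chosen, nothing is read from the contrast. No gene was near the limit of 10 kb: the nearest outside it was *Mup3*, 39.4 kb from a peak in H3K27ac Vec replicate 2, and every gene inside it overlapped a peak.

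**Figure D1:**
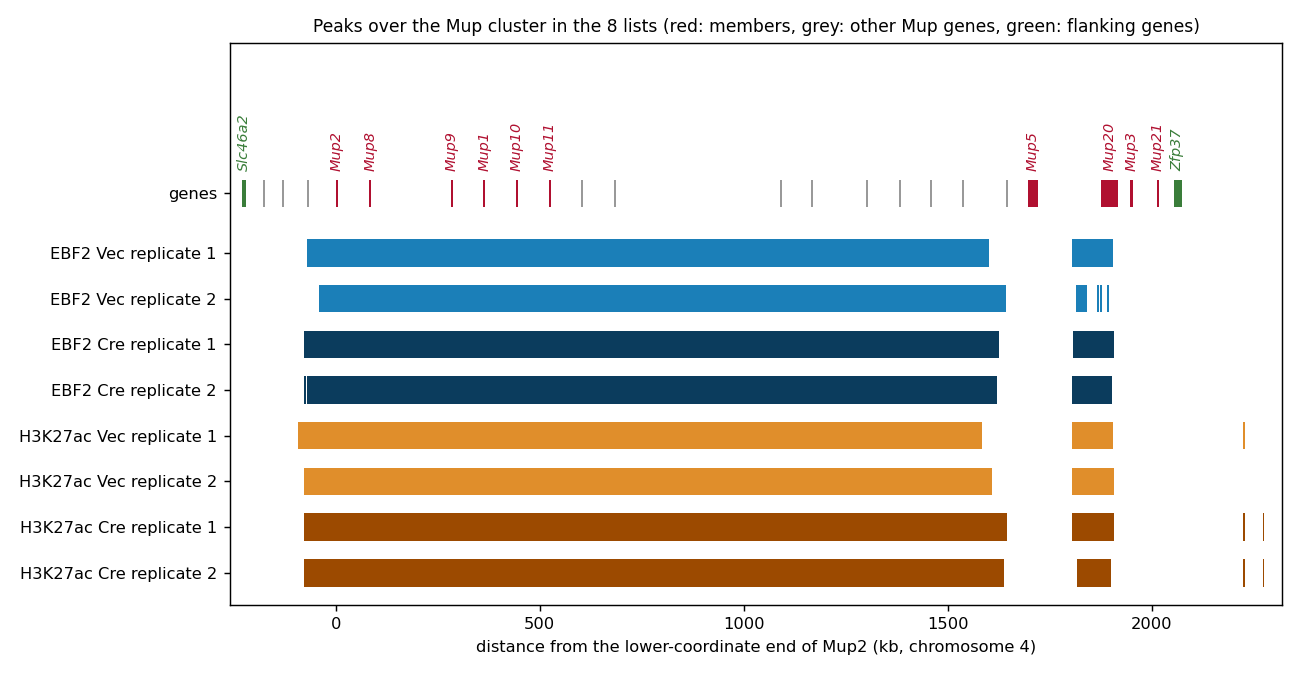
Peaks (bars) in each of the 8 lists over the *Mup* cluster, against the distance in kb from the lower-coordinate end of *Mup2*, with the 10 described genes in red, other *Mup* genes in grey and the nearest other genes in green; peaks under 3 kb and genes under 5 kb are drawn at that width. In every list the wide peak holds 6 of the 10 genes, and *Mup5*, *Mup3* and *Mup21* lie outside all peaks.

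The 6 enclosed genes are short and near the lower-coordinate side of the cluster. On GRCm38.p6, the mm10 build of the lists, *Mup2* (gene ID 17841) spans chr4:60135913-60139977 and *Mup8* (100041687) chr4:60218620-60222565. *Mup9* (100038948) spans chr4:60418046-60422085 and *Mup1* (17840) chr4:60498012-60501960. *Mup10* (100039008) and *Mup11* (100039028) span chr4:60578260-60582276 and chr4:60658466-60662432. Each is between 3.95 and 4.07 kb long and was covered over 100% of its length, exons and introns alike, in all 8 lists.

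*Mup2*, the outermost of the 6, lay 69.3 and 40.9 kb inside the lower edge of the wide peak in EBF2 Vec replicates 1 and 2. The distance was 77.5 and 71.4 kb in EBF2 Cre. It was 91.2 and 78.0 kb in H3K27ac Vec, and 78.1 and 76.7 kb in H3K27ac Cre. No list therefore placed the edge of the peak at *Mup2*, and EBF2 Vec replicate 2 came closest. *Mup11*, the innermost, lay 563 to 614 kb from the lower edge and 1058 to 1118 kb from the upper edge over the lists. The edges of the peak thus lay outside each of the 6 genes by 40.9 kb or more.

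The wide peak ran over almost the same ground in each list. In EBF2 Vec it spanned chr4:60066606-61736875 (1670 kb) in replicate 1 and chr4:60095028-61778175 (1683 kb) in replicate 2. In EBF2 Cre it spanned chr4:60058371-61760646 (1702 kb) and chr4:60064556-61757644 (1693 kb). The EBF2 peaks of both Cre lists were wider than those of both Vec lists, at 1698 ± 6.50 kb against 1677 ± 9.11 kb (SD, n = 2 each; two-sided exact permutation p = 0.333). The difference was 21.0 kb, and 27.4 kb without EBF2 Vec replicate 2. Of the 144 EBF2 peaks that hold a stretch of 100 kb or more shared by the 4 lists, 29.9% were wider in both Cre lists than in both Vec lists and 2.08% narrower, and without EBF2 Vec replicate 2 these shares were 32.6% and 29.2%. In H3K27ac Vec the peak spanned chr4:60044688-61720767 (1676 kb) and chr4:60057900-61745066 (1687 kb). In H3K27ac Cre it spanned chr4:60057799-61780841 (1723 kb) and chr4:60059169-61774458 (1715 kb), and again the groups did not overlap, at 1719 ± 5.48 kb against 1682 ± 7.84 kb (SD, n = 2 each; two-sided exact permutation p = 0.333). Of the 142 such H3K27ac peaks, 10.6% were wider and 31.0% narrower in both Cre lists. The EBF2 and H3K27ac sets both include peaks on the X and Y chromosomes. These chromosomes held most of the narrower H3K27ac peaks and few of the wider ones, and shares on autosomes alone were not computed. Without H3K27ac Vec replicate 2, 14.8% of the 142 peaks were wider and 68.3% narrower in both Cre lists. That sets Cre against H3K27ac Vec replicate 1 alone, whose background lay apart from the other H3K27ac lists. The shares without replicate 1 were not computed. With 2 libraries against 2 this test has 6 arrangements and cannot go below 0.333.

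The longest stretch covered in all 8 lists was chr4:60095028-61720767 (1626 kb), and the other 5 in the region, of 0.277 to 23.0 kb, lay in the block at *Mup20*, the uppermost of them, chr4:62007834-62013154 and chr4:62026988-62029466, over the gene itself. The longest stretch holds 15 protein-coding genes, of which 14 are numbered *Mup* genes and 6 are among the 10 described here, and 16 pseudogenes. Between 10 kb below *Mup2* and 10 kb above *Mup21*, a window of 2.03 Mb, the annotation has 21 protein-coding genes, 18 pseudogenes and 3 long noncoding RNAs. Of the 21, 19 are numbered *Mup* genes and 0 have a symbol outside the *Mup* series. The nearest other genes, *Slc46a2* below and *Zfp37* above, lay 130 to 180 kb and 145 to 160 kb from the outermost peak. The peaks in the cluster therefore ended well before its neighbours in each list.

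The fold of the wide peak over the background of its own list was 22.0 and 19.7 in EBF2 Vec and 26.4 and 19.6 in EBF2 Cre. It was 11.3 and 11.9 in H3K27ac Vec and 11.0 and 8.03 in H3K27ac Cre. The EBF2 folds refer to the highest point of the peak and the H3K27ac folds to its mean, so the values of the antibodies were not compared. In the EBF2 lists the coverage at that point came to 183 and 46.0 in Vec and 244 and 190 in Cre, against a background of 7.38, 1.39, 8.26 and 8.76. The lowest coverage and the lowest background belong to the same library, EBF2 Vec replicate 2. The −log10 q-value ranged from 50.6 in EBF2 Vec replicate 2 to 257 in EBF2 Cre replicate 1, and in the H3K27ac lists from 51.7 in Cre replicate 2 to 159 in Vec replicate 1.

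The wide peak was among the stronger entries of each list and not at the top. By width it ranked between place 7, in EBF2 Vec replicate 2, and place 17, and by fold between place 19, in EBF2 Vec replicate 2 and EBF2 Cre replicate 1, and place 45, in H3K27ac Cre replicate 2. Between 95.0% and 97.1% of the peaks of a list had a lower fold. The highest point of the EBF2 peak was not at the same place in all lists. It lay 3.55, 19.8 and 6.94 kb from *Mup16* in EBF2 Vec replicates 1 and 2 and EBF2 Cre replicate 1, and 7.87 kb from *Mup10* in EBF2 Cre replicate 2. Among the 10 genes, *Mup10* was thus near the maximum in 1 of 4 EBF2 lists. The broad H3K27ac lists give no such point.

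**Figure D2:**
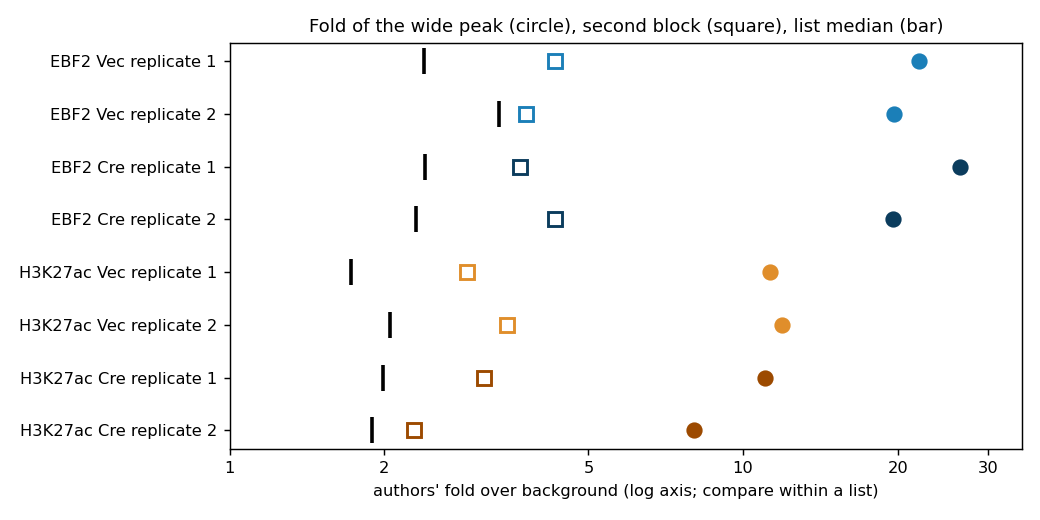
The authors' fold over background (log axis) of the wide peak (circles), of the highest peak in the second block at *Mup20* (open squares) and of the median peak (bars) in each list. In all 8 lists the wide peak lies above the second block, by a factor of 3.42 to 7.21, and the second block lies above the median peak.

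*Mup20* (gene ID 381530, chr4:62011337-62054143) is the longest of the 10 gene records at 42.8 kb and the only one that peaks covered in part. In EBF2 Vec, 70.5% of the gene was covered in replicate 1 and 10.0% in replicate 2. The share was 72.2% and 65.3% in EBF2 Cre. It was 71.0% and 76.5% in H3K27ac Vec, and 74.1% and 58.7% in H3K27ac Cre. The median over the 8 lists was 70.7%, EBF2 Vec replicate 2 lay far below the others, and Vec and Cre overlapped for both antibodies. In each list the covered ground ended inside the gene, 18.1 to 32.8 kb past its lower-coordinate end.

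The block over *Mup20* began between 61940124 and 61951629 and ended between 62029466 and 62044093. It was a single peak of 84.8 to 103 kb in 7 lists. In EBF2 Vec replicate 2 it was 5 separate peaks that covered 36.7 kb of a span of 79.3 kb. The top fold of the block was 2.29 to 4.30 over the 8 lists, above that of 55.3% to 79.7% of the peaks in the same list. The ground between the wide peak and this block, 159 to 219 kb, held no peak in any list. EBF2 peaks covered 68.9 ± 45.5 kb of the block in Vec and 99.7 ± 0.794 kb in Cre (SD, n = 2 each; two-sided exact permutation p = 1), a difference within the spread of the Vec libraries. It was 30.8 kb with all libraries and -1.37 kb without EBF2 Vec replicate 2. H3K27ac peaks covered 102 ± 1.19 kb in Vec and 93.8 ± 12.8 kb in Cre (SD, n = 2 each; two-sided exact permutation p = 0.667), and without H3K27ac Cre replicate 2 that difference of -8.60 kb was 0.42 kb. At *Mup20* a difference between Vec and Cre was therefore not larger than the spread between libraries for either antibody.

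*Mup5* (gene ID 17844, chr4:61831319-61858043), whose product is made in glands, lies in the uncovered ground. The distance to the nearest peak was 82.4 and 53.1 kb in EBF2 Vec and 70.7 and 73.7 kb in EBF2 Cre. It was 82.1 and 82.8 kb in H3K27ac Vec and 50.5 and 56.9 kb in H3K27ac Cre. The H3K27ac lists of Cre thus had a peak nearer to the gene than those of Vec, and there it was the wide peak and not the second block. *Mup3* (gene ID 17842, chr4:62083476-62087317) lay above the second block, at 42.0, 54.0, 41.2 and 44.2 kb in EBF2 Vec replicates 1 and 2 and EBF2 Cre replicates 1 and 2. In the H3K27ac lists of the same order it lay 41.8, 39.4, 40.4 and 47.0 kb away. *Mup21* (gene ID 381531, chr4:62147832-62150841) was the farthest, with no peak within 104 to 118 kb. At these 3 genes, signal under the threshold of the caller is not seen in the lists.

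**Figure D3:**
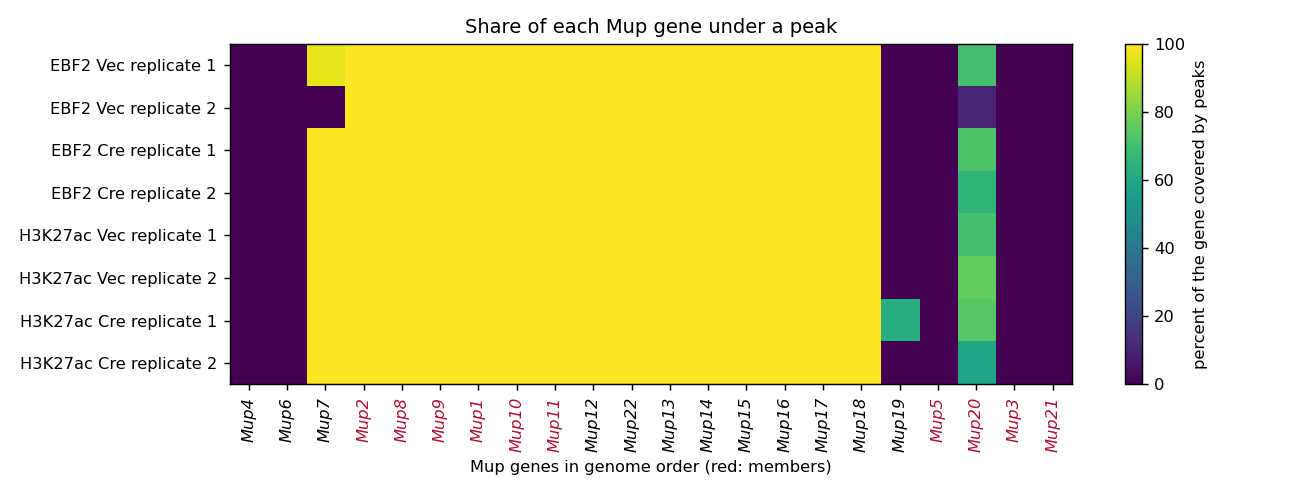
Percentage of each *Mup* gene covered by peaks (colour, 0 to 100) in the 8 lists (rows), with the genes in genome order and the 10 described ones in red. *Mup2* to *Mup11* are covered whole in all lists, *Mup20* over 10.0% to 76.5% of its length, and *Mup5*, *Mup3* and *Mup21* over none.

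Of the other 12 numbered *Mup* genes, 10 had the same state in all lists. *Mup12*, *Mup22*, *Mup13*, *Mup14*, *Mup15*, *Mup16*, *Mup17* and *Mup18* lay wholly inside the wide peak in all 8 lists. *Mup4* and *Mup6*, at the lower-coordinate end of the array, had no peak within 10 kb in any list, with gaps of 84.0 to 134 kb and 37.4 to 87.8 kb. *Mup7* and *Mup19* were the only *Mup* genes whose state changed from list to list, and they are the genes at the borders of the wide peak. Of 23 other lipocalin genes found in the table, such as *Lcn2* and *Rbp4*, 0 had a peak within 10 kb in any list, where the share of all protein-coding genes is 8.93%. The same count was 0 of 11 for genes that regulate hepatic *Mup* expression, such as *Ghr*, *Stat5b* and *Hnf4a*.

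At the lower border, the wide peak began 0.137 kb inside *Mup7* (chr4:60066469-60070475) in EBF2 Vec replicate 1 and 28.6 kb above its start in EBF2 Vec replicate 2, 24.6 kb past its end. In EBF2 Cre it began 8.10 and 1.91 kb below the gene, so that *Mup7* was inside the peak. EBF2 Cre replicate 2 had another peak of 3.25 kb just below the wide one, which no other list held as a separate peak. In the H3K27ac lists the peak began below *Mup7* in all 4, by 21.8 and 8.57 kb in Vec and 8.67 and 7.30 kb in Cre. The start of the wide peak thus varied over 50.3 kb among the 8 lists, and over 21.9 kb without EBF2 Vec replicate 2. Without H3K27ac Vec replicate 1, which reached the farthest, it varied over 37.2 kb.

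At the upper border, the end of the wide peak relative to the start of *Mup19* (chr4:61778324-61782355) varied over 60.1 kb. In EBF2 Vec it stopped 41.4 kb short of the gene in replicate 1 and 0.149 kb short in replicate 2. In EBF2 Cre it stopped 17.7 and 20.7 kb short, between the Vec lists. In H3K27ac Vec it stopped 57.6 and 33.3 kb short. In H3K27ac Cre it reached 2.52 kb into *Mup19* in replicate 1 and stopped 3.87 kb short in replicate 2. *Mup19* therefore had a peak within 10 kb in 3 lists, EBF2 Vec replicate 2 and both H3K27ac Cre lists.

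**Figure D4:**
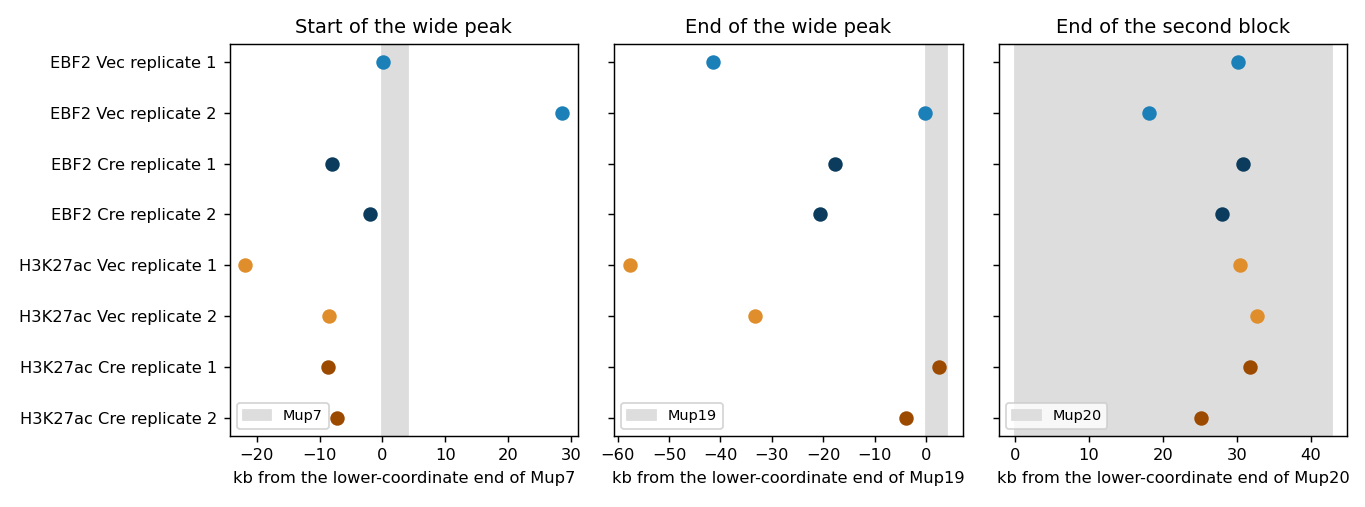
Start and end of the wide peak and end of the second block in each list, in kb from the lower-coordinate end of *Mup7*, *Mup19* and *Mup20* (grey bands show the genes). The start and end of the wide peak vary over 50.3 and 60.1 kb among the lists, and the end of the second block over 14.6 kb, always inside *Mup20*.

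The edges were then compared between Cre and Vec within each antibody. The lower edge of the EBF2 peak lay farther out in both Cre lists than in both Vec lists, with a mean of Cre minus Vec of -19.4 kb (SD 4.37 kb in Cre and 20.1 kb in Vec, n = 2 each; two-sided exact permutation p = 0.333). Without EBF2 Vec replicate 2 the difference was -5.14 kb, without EBF2 Vec replicate 1 it was -33.6 kb, and without EBF2 Cre replicate 1, whose peaks carry the other name, it was -16.3 kb. The upper edge of the EBF2 peak differed by 1.62 kb and the groups overlapped (two-sided exact permutation p = 1). Its direction depended on the Vec libraries, with -19.0 kb without replicate 1 and 22.3 kb without replicate 2. For H3K27ac, the lower edge differed by 7.19 kb with overlap (two-sided exact permutation p = 0.667), and by 0.584 kb without H3K27ac Vec replicate 1 and 13.8 kb without H3K27ac Vec replicate 2. The upper edge lay farther out in both Cre lists than in both Vec lists, by 44.7 kb (SD 4.51 kb in Cre and 17.2 kb in Vec, n = 2 each; two-sided exact permutation p = 0.333). It remained between 32.6 and 56.9 kb farther out when each library was left out in turn. So 1 of 2 edges lay farther out in Cre for each antibody, and it was not the same edge. The same order of the groups was found for 32.3% of the 288 edges of EBF2 peaks that hold a stretch of 100 kb or more shared by the 4 lists, and for 10.6% of the 284 such edges of H3K27ac. The opposite order, with both Cre edges farther in, was found for 2.78% of these EBF2 edges and 28.2% of the H3K27ac edges. Without EBF2 Vec replicate 2, Cre lay farther out at 37.2% and farther in at 28.5% of the EBF2 edges. Without 1 of the other EBF2 libraries in turn, these shares were 49.3% to 81.9% and 6.6% to 8.33%. The lean of the EBF2 edges thus rests largely on EBF2 Vec replicate 2. Leaving out each H3K27ac library in turn, Cre lay farther out at 15.1% to 27.1% and farther in at 34.9% to 57.0% of the H3K27ac edges. The H3K27ac edge at the cluster is in the less frequent order, over edges that include the X and Y chromosomes. These chromosomes held most of the H3K27ac edges farther in, and shares on autosomes alone were not computed.

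Over the window from *Mup2* to *Mup21*, EBF2 peaks covered 1712 and 1689 kb in Vec and 1735 and 1731 kb in Cre. The mean was 1700 ± 16.3 kb in Vec and 1733 ± 2.92 kb in Cre (SD, n = 2 each; two-sided exact permutation p = 0.333), which is 0.03 as a log2 ratio (Cre over Vec) and 0.02 without EBF2 Vec replicate 2. H3K27ac peaks covered 1696 and 1722 kb in Vec and 1758 and 1733 kb in Cre. The mean was 1709 ± 18.4 kb in Vec and 1746 ± 17.3 kb in Cre (SD, n = 2 each; two-sided exact permutation p = 0.333), which is also 0.03 as a log2 ratio and 0.02 without H3K27ac Vec replicate 1. The Cre lists thus covered more of the window than the Vec lists, by 32.4 kb for EBF2 and 36.1 kb for H3K27ac, with a p-value that this design cannot lower. For EBF2 the same order was common among wide peaks, as the shares of widths above give, and whether it is particular to the cluster was not tested. Between 83.0% and 86.4% of the window was covered in every list. The number of EBF2 peaks touching the window was 2 and 6 in Vec and 2 in each Cre list (two-sided exact permutation p = 1), and the 4 additional ones were the pieces at *Mup20* in EBF2 Vec replicate 2. For H3K27ac it was 2 in each of the 4 lists.

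The sequence at the gene starts was compared next, because peak lists cannot tell near-identical copies apart if reads match several of them, and how such reads were handled is not given in the sources used here. RefSeq promoter sequences of GRCm38.p6, 250 bases before to 50 after the gene start, were matched by symbol for 6 of the 10 genes, *Mup2*, *Mup9*, *Mup10*, *Mup11*, *Mup3* and *Mup21*. The start in that table is not always the end of the gene record given above. For *Mup2*, *Mup9*, *Mup10* and *Mup11*, 121, 133, 121 and 37 of the 250 bases lie inside the gene record, and for *Mup3* and *Mup21* none do. The windows compared are thus not placed alike, and overhanging ends were left out of each alignment. The 250 bases before the start are shown for 2 genes inside the wide peak and for the 2 with no peak, all on the minus strand and written 5′ to 3′, with the letters TATATAA in capitals. They are chr4:60139857-60140106 for *Mup2*, chr4:60582156-60582405 for *Mup10*, chr4:62087318-62087567 for *Mup3* and chr4:62150842-62151091 for *Mup21*.
Mup2: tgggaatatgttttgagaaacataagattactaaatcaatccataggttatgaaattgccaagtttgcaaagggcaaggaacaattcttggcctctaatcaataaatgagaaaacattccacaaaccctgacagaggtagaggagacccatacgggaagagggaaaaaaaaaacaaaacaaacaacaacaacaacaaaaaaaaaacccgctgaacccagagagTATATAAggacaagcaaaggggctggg
Mup10: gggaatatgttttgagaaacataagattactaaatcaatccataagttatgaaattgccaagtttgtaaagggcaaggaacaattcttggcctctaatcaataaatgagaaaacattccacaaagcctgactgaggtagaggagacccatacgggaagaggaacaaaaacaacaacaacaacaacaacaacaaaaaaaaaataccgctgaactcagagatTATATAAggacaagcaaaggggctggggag
Mup3: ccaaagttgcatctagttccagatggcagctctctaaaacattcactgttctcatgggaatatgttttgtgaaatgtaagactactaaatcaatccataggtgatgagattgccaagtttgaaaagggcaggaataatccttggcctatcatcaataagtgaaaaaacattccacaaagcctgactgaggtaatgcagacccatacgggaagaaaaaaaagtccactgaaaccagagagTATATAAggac
Mup21: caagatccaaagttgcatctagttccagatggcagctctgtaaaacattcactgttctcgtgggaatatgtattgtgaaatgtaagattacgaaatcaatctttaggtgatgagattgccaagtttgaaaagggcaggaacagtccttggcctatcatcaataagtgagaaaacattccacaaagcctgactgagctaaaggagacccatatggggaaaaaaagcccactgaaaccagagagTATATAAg

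The starts of *Mup2*, *Mup9*, *Mup10* and *Mup11*, all inside the wide peak, were 93.7% to 98.5% identical over aligned positions, with a median of 95.8% over 6 pairs. Positions where 1 of the sequences has a gap inside the alignment count as not identical. *Mup2* and *Mup11* were the closest pair at 98.5%. *Mup3* and *Mup21*, both without a peak, were 92.9% identical to each other. Between these groups the identity was 73.7% to 76.8% over 8 pairs, *Mup2* and *Mup3* for example at 76.8% and *Mup10* and *Mup21* at 73.7%. Gaps count in these values, so they are not a share of differing bases, and identity without gaps was not computed. Other *Mup* genes inside the peak were 89.9% to 98.9% identical to the enclosed 4. *Mup4* and *Mup6*, which had no peak, were 79.3% to 81.7% identical to the enclosed 4 and 84.2% to 88.7% to *Mup3* and *Mup21*. *Mup19*, at the upper border, was 93.4% to 97.7% identical to the enclosed 4, and the wide peak stopped short of it in 7 lists. *Mup7*, at the lower border, was 95.2% to 98.5% identical to them over a shorter alignment of 163 to 194 positions, and its 250 bases were under the wide peak in 7 lists. The genes are copies of each other and lie in order along 1 chromosome, so identity and position cannot be told apart, and the part of either in the peaks was not tested.

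**Figure D5:**
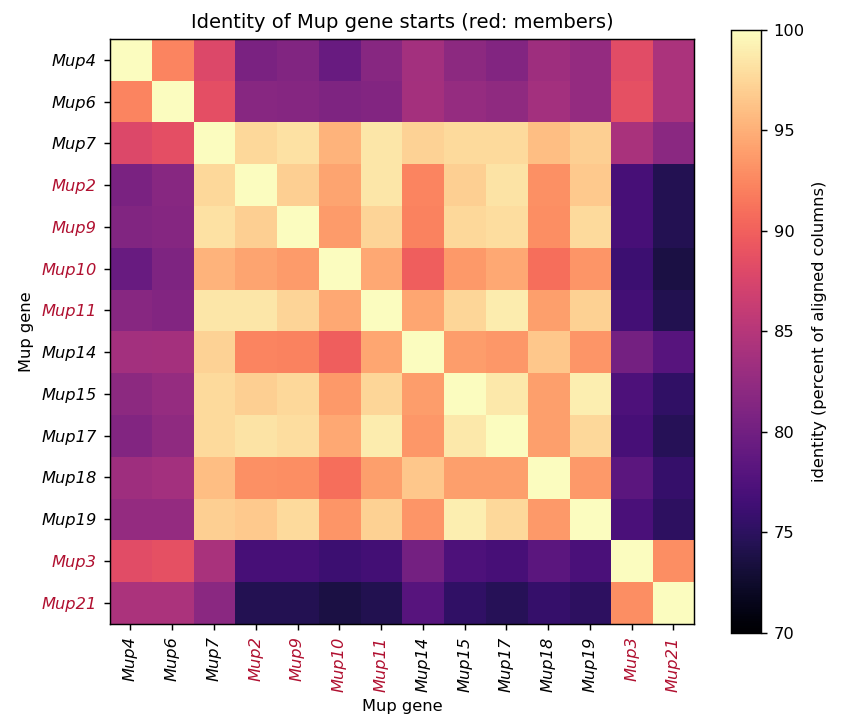
Identity (percentage of aligned positions, gaps counted as not identical, colour) of the sequences at the starts of 14 *Mup* genes in genome order, with 6 of the described genes in red. The enclosed *Mup2*, *Mup9*, *Mup10* and *Mup11* form a block of 93.7% or more, and *Mup3* and *Mup21* stand apart from them at 73.7% to 76.8%.

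The 250 bases before the start were searched on both strands for the letters TATATAA, which spell a common promoter box, and for the palindromic core of an EBF site, TCCC followed after 2 bases of any kind by GGGA. The promoter box was found in 5 of the 6 promoters, beginning 27 bases before that table's start in *Mup2*, 31 in *Mup9*, 30 in *Mup10*, 11 in *Mup3* and 8 in *Mup21*. Among 32851 RefSeq promoters of the same length 3.04% held it, and 6 of the 8 other *Mup* promoters did. The letters were thus present in genes with and without a peak. The EBF core was found in 0 of the 6 and in 0 of the 8 other *Mup* promoters, against 0.779% of all promoters. That says only that these letters are not in this window. The 250 bases of *Mup2*, *Mup9*, *Mup10* and *Mup11* were covered by the wide peak in all 8 lists, and those of *Mup3* and *Mup21* in 0.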

How the data were processed

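Cut & Tag peak lists of 8 libraries of differentiated mouse BAC (EBF2 and H3K27ac, Vec and Cre, 2 each) were used. Groups and replicate numbers were taken from the labels. The submitters' processing notes name bcl2fastq 2.17, Trimmomatic 0.33, HISAT2 2.2.1, MACS2 2.2.7 and the build mm10. The authors called peaks per library, not on pooled samples, and the settings of the caller, the treatment of duplicate and multiply matching reads and any control library are not given in the sources used here. The score deposited for each peak is 10 times its −log10 q-value, cut to a whole number. The deposited ratio is the fold over the background of the caller, and −log10 of the p-value and q-value were also written by the authors. In the H3K27ac lists these are means over a region. The deposited summit offset was used for the EBF2 lists.

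Peaks were intersected with the genes of RefSeq on GRCm38.p6, leaving out 108 protein-coding genes on unplaced scaffolds. A gene had a peak where at least 1 base of a peak lay in it or within 10 kb. Coverage k and background b were recovered from fold = (k + 1) / (b + 1) and the Poisson p-value. The background of a list is the 10th percentile of b over peaks with a −log10 p-value under 15, and is approximate for the H3K27ac means. The number of reads is unknown, so no counting intervals were computed. Vec and Cre were compared within an antibody by the exact permutation test over libraries. Promoters were aligned pairwise (match 1, mismatch -1, gap opening -3, extension -0.5). Identity was taken over the aligned positions, without overhanging ends and with inner gaps counted as not identical. Python 3.11.15, numpy 2.4.6, pandas 2.3.3, scipy 1.17.1, biopython 1.88 and matplotlib 3.10.9 were used, and the overlap functions were tested on simulated lists.

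The members and gene lists were chosen with earlier results of these data known. By the rule for named genes, all 10 members, every other numbered *Mup* gene, the nearest other gene on each side and any list gene with a peak were to be named. The examples *Ucp1*, *Adipoq*, *Lcn2*, *Rbp4*, *Ghr*, *Stat5b* and *Hnf4a* only illustrate their lists. The Cre-minus-Vec differences in the edges and width of the wide peak and in the cover of the second block, and the genes named in the closing section, were chosen after the data were seen. Alternatives were a higher score minimum (the median score, 29 for EBF2 and 27 for H3K27ac), an equal number of best-scoring peaks (533 and 646), merging of peaks within 500 bp, other gene and cluster windows, coverage of 50% of the gene, a replicate block and leaving out each library. No library was left out otherwise.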

Additional observations from a re-analysis of the deposited data

How the results depend on the processing

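Of 143 alternative values, 135 were counted as unchanged. Gene counts were judged by a set ratio, log2 ratios by direction, and the rest by direction and the pooled SD between replicates. With 2 libraries per group, leaving 1 out cannot shift a Cre-minus-Vec difference by more than that SD. For the edges, the width and the second block, those fits could thus show only a change of sign, and the count says little about size. The count of the 10 genes with a peak in all 8 lists was 7 and fell to 6, without *Mup20*, under the higher score minimum and where peaks had to cover 50% of the gene, in both cases through EBF2 Vec replicate 2, while 6 genes stayed inside the wide peak under each alternative run. The end of the second block varied over 14.6 kb, over 67.6 kb with the higher score minimum, which drops the peaks at *Mup20* in EBF2 Vec replicate 2, and over 7.65 to 14.6 kb when each library was left out in turn. The start of the wide peak varied over 21.9 to 50.3 kb in the same fits, lowest without EBF2 Vec replicate 2. The log2 ratio of Cre over Vec of the number of EBF2 peaks was -1 and ranged from -1.58 to 0.00, the latter without EBF2 Vec replicate 2. The upper edge of the EBF2 peak, Cre minus Vec, changed from 1.62 kb to -19.0 kb without EBF2 Vec replicate 1 and was 22.3 kb without EBF2 Vec replicate 2. The log2 ratio of covered length stayed between 0.02 and 0.04 for both antibodies when a library was left out, EBF2 Cre replicate 1 included, and was 0.0435 for EBF2 and 0.0232 for H3K27ac with 100 kb added to each side of the window. The covered length of the second block, Cre minus Vec, was 30.8 kb for EBF2 and ranged from -1.37 to 63.0 kb without 1 library, and it was -8.60 kb for H3K27ac and ranged from -17.6 to 0.42 kb, with the sign turned without EBF2 Vec replicate 2 and H3K27ac Cre replicate 2. With the replicate number as a block, the log2 ratio of covered length was 0.0273 for EBF2 and 0.0302 for H3K27ac (exact sign-flip permutation, p = 0.5, the smallest 2 pairs allow), and that of the number of peaks -0.79 and 0. The labels give the number without saying what it marks, and 2 pairs are too few to check whether it pairs the libraries. A list without read counts limits all of this to whether a base is under a peak.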

Other observations

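Beyond the cluster, the nearest peaks on the higher-coordinate side were about 1 kb wide and appeared in H3K27ac lists and in no EBF2 list. These genes were chosen after their values were seen. At the shared start of *Fkbp15* and *Slc31a1*, the gene of a copper importer, H3K27ac Vec replicate 1 and both Cre lists had a peak of 0.966 to 1.03 kb with a fold of 1.78 to 1.95, and H3K27ac Vec replicate 2 had none. At the shared start of *Cdc26* and *Prpf4*, a splicing factor gene, both H3K27ac Cre lists had a peak, of 1.05 and 1.10 kb with folds of 1.65 and 1.51, and neither Vec list did. Both folds lie below the median fold of their lists, 1.99 in H3K27ac Cre replicate 1 and 1.90 in replicate 2. The difference between Cre and Vec there was not tested, and how many genes of the whole table show the same split was not counted. No peak in the *Mup* cluster window was that narrow: the narrowest, in EBF2 Vec replicate 2, was 1.74 kb.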
